A study of Mus musculus with 15 samples.

Results

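The genes of the collagen chains were followed across mammary tumours of Wsh and B6 mice. A gene was counted as a collagen chain when its name on the array had the form Col, a number, a and a number, as in Col1a1, and its probes were not control spots. This gave 44 genes among 37008 gene names on the array, with 91 probes, and 38 of them passed the filter on dim probes described below. The tumours arose spontaneously in MMTV-PyMT mice, in which the mouse mammary tumour virus promoter drives the polyoma middle T oncogene in mammary epithelium. One group had the Wsh background (7 arrays) and the other the B6 background, C57BL/6 (8 arrays). All mice carried the transgene and were 20 weeks old. Wsh is the usual name of mice with the Kit W-sh allele, an inversion beside Kit, which encodes the receptor of stem cell factor, and these mice lack mast cells as adults. The study asked how mast cells affect breast cancer cells. The Kit allele with its inversion, the lack of mast cells and other DNA of the backgrounds cannot be told apart in this design. Whether any of the tumours came from 1 mouse is not stated in the labels, and p-values then reflect sample-to-sample spread, which may be partly technical.

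Collagens are built from 3 chains that wind into a triple helix inside the cell. Fibrillar chains, such as those of collagen I, III and V, form the banded fibres of connective tissue and are made mainly by fibroblasts. Chains of collagen IV form the sheet of the basement membrane under epithelium and around vessels, and collagen VII, XV and XVIII lie in or next to that membrane. The remaining chains form beaded filaments, coat fibrils as FACITs (fibril-associated collagens with interrupted triple helices), build short-chain networks or span the cell membrane. Dense fibrillar collagen is a known feature of the stroma of breast tumours. By class, 10 of 11 fibrillar chains, 8 of 9 basement membrane chains and 20 of 24 other chains were tested. Col4a3, Col6a5, Col6a6, Col19a1, Col24a1 and Col28a1 did not pass the filter and have no values here.

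Signals are given on the log2 scale, with each array's 75th percentile set to 0, and a difference is the Wsh mean minus the B6 mean. Of the spots other than controls, 58.8% to 70.8% were well above background on the Wsh arrays, against 55.7% to 73.4% on the B6 arrays. The arrays lay on 2 slides, the first with 4 arrays of each group and the second with 3 Wsh and 4 B6 arrays, and their number limits the precision. Kit had a lowest, median and highest signal of -0.18, 0.65 and 1.40 in Wsh tumours, against 2.03, 3.30 and 3.84 in B6 tumours (limma adjusted p = 2.08e-04), and the groups did not overlap. Every gene of the luminal epithelium (10 of 10) and fibroblast (12 of 12) marker lists was well above background on all 15 arrays. Skeletal muscle transcripts marked 5 arrays, Wsh replicates 1, 3, 4 and 5 and B6 replicate 4, with list means between 0.90 and 4.52, against -4.34 to -3.43 on the other 10 arrays. These 5 arrays were left out as an alternative. In such pieces of tissue, fewer cells of a type and less RNA per cell cannot be told apart.

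No collagen chain passed the threshold between Wsh and B6 tumours. By limma with Benjamini-Hochberg adjustment over all 22342 genes tested, 0 of 38 chains had an adjusted p under 0.05, against 75 of all genes (0.336%). At an unadjusted p under 0.05 there were 4 chains, Col4a4, Col10a1, Col20a1 and Col22a1, which is 10.5% of 38 beside 10.4% of all genes. Signals were higher in Wsh for 19 chains and lower for 19, and the median difference was 0.00 for the chains and -0.01 for all genes. No chain separated the groups without overlap, against 80 of all genes (0.358%). The chains varied more than most genes among tumours of the same group, with a median within-group SD of 0.61, against 0.30 over all genes. That spread set the precision. The 95% interval of the difference lay between -1 and 1 on the log2 scale for 21 of the 38 chains, and for the others a change of 2-fold in at least 1 direction lay within the interval.

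**Figure D1:**
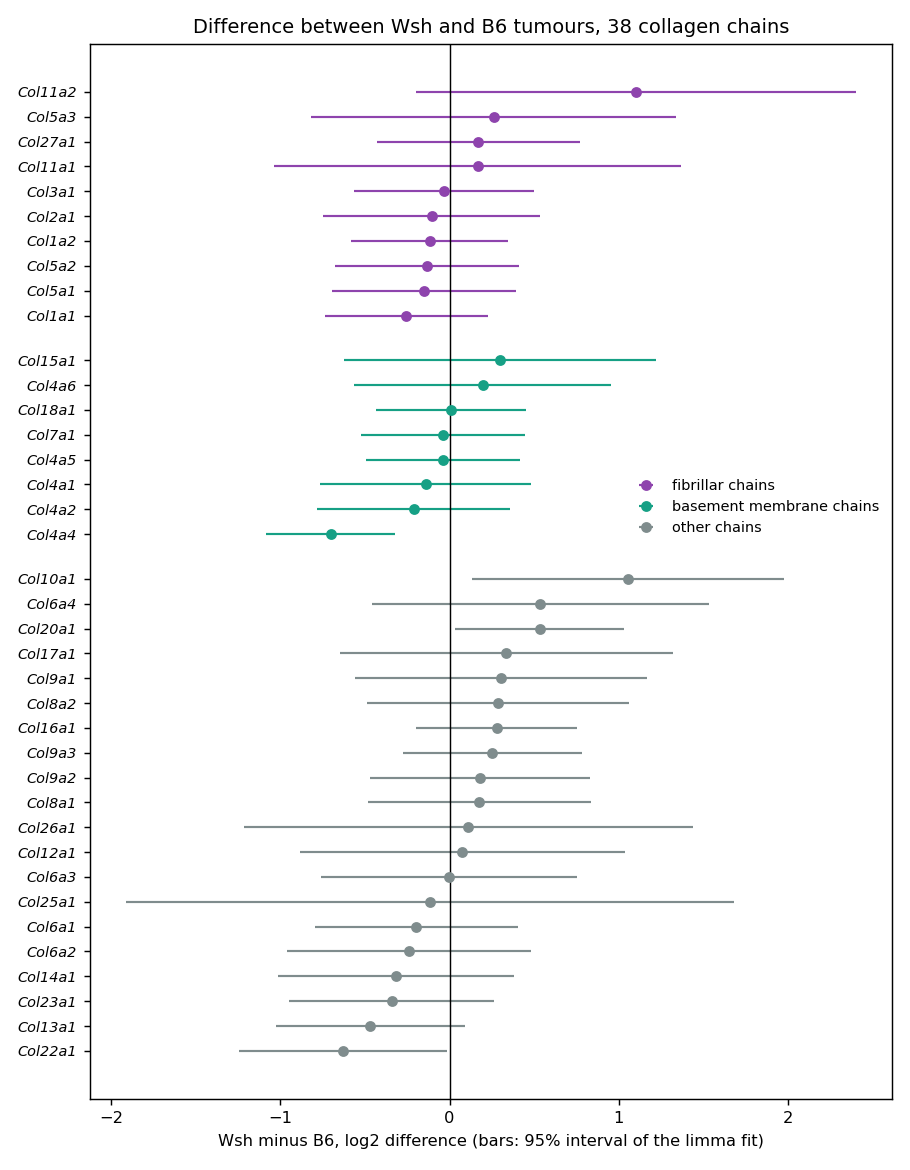
Difference between Wsh and B6 tumours for the 38 collagen chains that passed the filter. The horizontal axis gives the log2 difference, Wsh minus B6, with points for the limma estimate and bars for its 95% interval, and chains run down the page by class and size of the difference. The intervals of Col4a4, Col10a1, Col20a1 and Col22a1 leave out 0, and none of these chains passed the adjusted threshold.

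The signals of every fibrillar chain overlapped between the groups. Col1a1, which with Col1a2 makes collagen I, had a lowest, median and highest signal of 3.54, 4.71 and 5.11 in Wsh tumours, against 3.97, 4.97 and 5.30 in B6 tumours. Most Wsh values lay inside the B6 range, and Wsh replicate 2 alone lay below it. The difference was -0.26 (SE 0.23, 95% interval -0.74 to 0.23, adjusted p = 0.760). Col1a2 had signals of 4.79, 5.49 and 5.84 in Wsh tumours, against 4.59, 5.66 and 6.05 in B6 tumours, a difference of -0.12 (95% interval -0.58 to 0.35). Col3a1, the only chain of collagen III, gave 3.87, 4.74 and 5.38 in Wsh tumours, against 3.87, 4.86 and 5.48 in B6 tumours, a difference of -0.03 (95% interval -0.57 to 0.50). Both groups thus spanned nearly the same range of Col3a1. Col5a1 and Col5a2, chains of collagen V, which starts fibrils and sets their width, differed by -0.15 (SE 0.26) and -0.13 (SE 0.26). Col5a3, the third chain of that collagen, differed by 0.26 (SE 0.51), Col27a1 by 0.17 (SE 0.28) and Col2a1 by -0.10 (SE 0.30). Col11a1, a chain of the collagen XI of cartilage fibrils that is also known from tumour stroma, differed by 0.17 (SE 0.57) and had 1 of the 4 largest within-group SDs (1.18) among chains well above background on every array.

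Col11a2 had the largest difference of a fibrillar chain, 1.10 (SE 0.61, adjusted p = 0.571), and 1 tumour added much of it. Its signals were -6.10, -4.54 and -0.50 in Wsh tumours, against -6.13, -5.48 and -4.72 in B6 tumours. The Wsh value of -0.50 belonged to replicate 6, and the next highest of that group was -4.31. Of the 7 Wsh values, 4 lay above the highest B6 value. The probe was well above background on 5 of 7 Wsh arrays and 3 of 8 B6 arrays. Without Wsh replicate 6 the difference was 0.47.

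**Figure D2:**
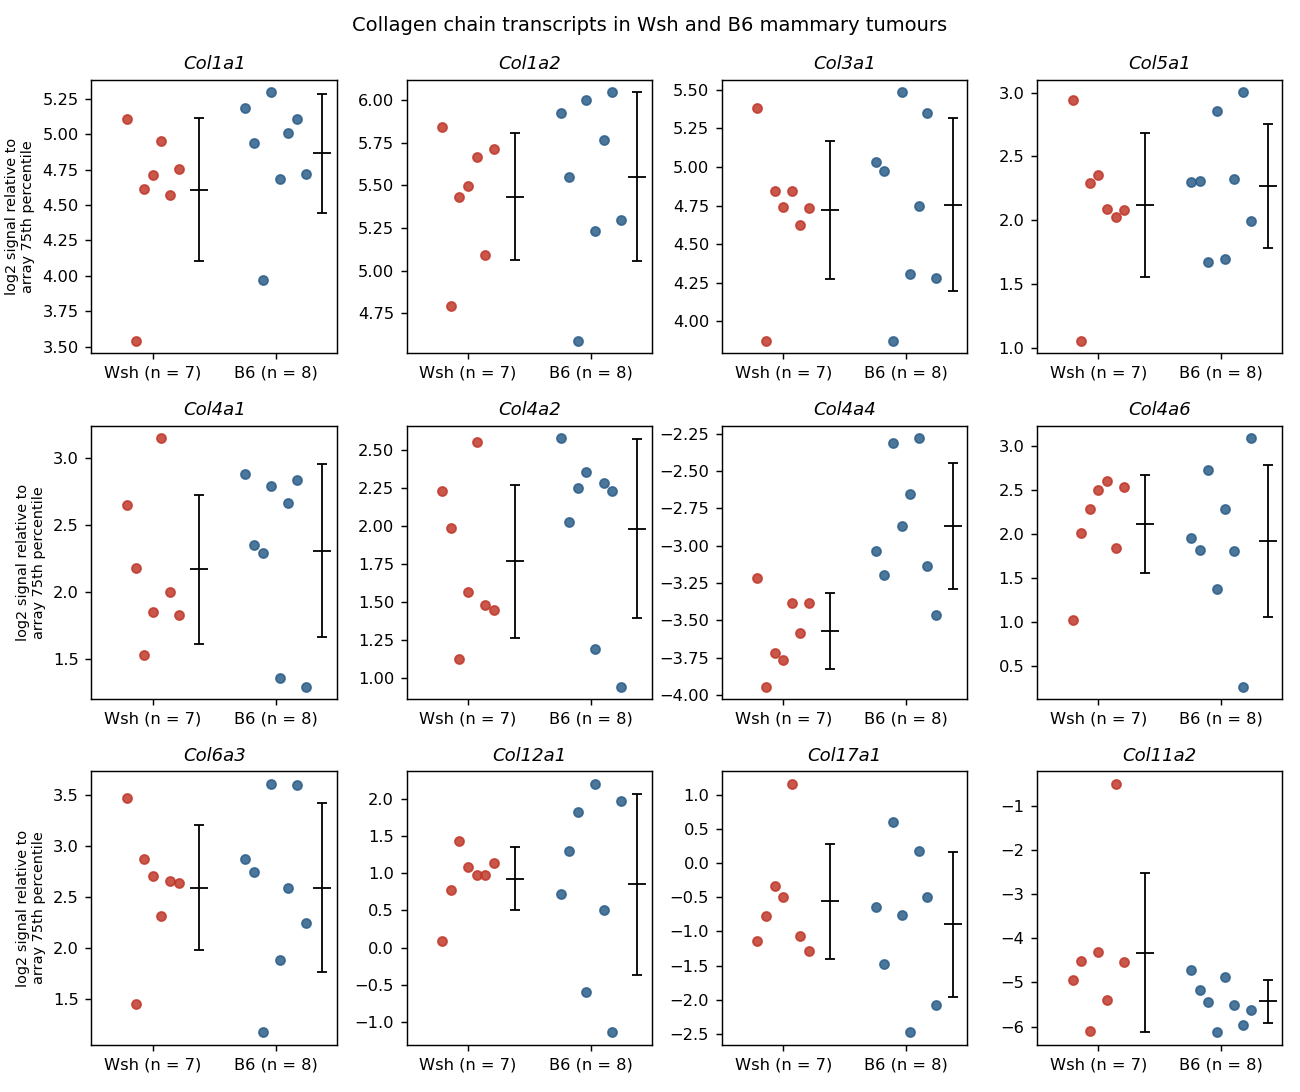
Signals of 12 collagen chains by array, as log2 relative to the array's 75th percentile, with Wsh at the left of each panel and B6 at the right. Points are arrays in order of replicate number and the bars are the mean with 1 SD. The groups overlap in every panel, and Col4a4 has 4 of 7 Wsh values below the lowest B6 value. Col11a2 has a single Wsh array, at -0.50, far above all the others.

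In the basement membrane class, Col4a4 had the smallest unadjusted p of all the chains, by the probe used for each chain. A further Col15a1 probe, described below, had a smaller one. With all probes fitted by limma, its unadjusted p was 3.21e-04, against 0.00126 for the Col4a4 probe. Together with Col4a3 and Col4a5, Col4a4 forms the collagen IV network best known from the kidney glomerulus. Its signals were -3.94, -3.59 and -3.21 in Wsh tumours, against -3.46, -2.95 and -2.28 in B6 tumours. Of the 7 Wsh values, 4 lay below the lowest B6 value, and all 7 lay below the B6 median. The difference was -0.70 (SE 0.18, 95% interval -1.08 to -0.32, unadjusted p = 0.00128), and its adjusted p was 0.136. The difference was -0.81 on the first slide and -0.57 on the second. With array quality weights the difference was -0.77 and the adjusted p 0.04998, the only setting in which any chain passed. The probe lay at chr1:82445053-82445112 (mm9, as the array files give it). A second Col4a4 probe, at chr1:82448113-82448172, was well above background on only 6 arrays, so it was not tested, and its mean was -5.74 in Wsh and -4.96 in B6 tumours.

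Col4a1 and Col4a2, which form the collagen IV of nearly all basement membranes, had overlapping signals. Col4a1 gave 1.53, 1.998 and 3.15 in Wsh tumours, against 1.30, 2.51 and 2.88 in B6 tumours, a difference of -0.14 (SE 0.29). Col4a2 gave 1.12, 1.57 and 2.55 in Wsh tumours, against 0.94, 2.24 and 2.58 in B6 tumours, a difference of -0.21 (SE 0.27). The Wsh medians of both chains were lower, and the lowest value of each was a B6 array. Both differences turned positive on the second slide alone, 0.29 for Col4a1 and 0.16 for Col4a2. Col4a5 and Col4a6, the X-linked pair, differed by -0.04 (SE 0.21) and 0.20 (SE 0.36). Col7a1, which makes the anchoring fibrils under stratified epithelium, differed by -0.04 (SE 0.23), and Col18a1, the source of endostatin, by 0.01 (SE 0.21). Col15a1, a proteoglycan chain at the outer face of basement membranes, differed by 0.30 (SE 0.43). Pxdn, the peroxidase that forms the sulfilimine crosslink of collagen IV, differed by -0.25 (SE 0.13, adjusted p = 0.531).

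The pairs Col4a1 with Col4a2 and Col4a5 with Col4a6 each lie head to head in the genome, and the signals of each pair moved together across these tumours, so their start regions are shown. Partner chains on different chromosomes also moved together. Col1a1 and Col1a2, on chromosomes 11 and 6, had r = 0.913, against 0.916 for Col4a5 and Col4a6. A link of shared start regions to these correlations was not tested. The windows reach from 250 bases before to 50 bases after the annotated start, on the strand of each gene, from RefSeq on GRCm38.p6. Capitals mark 3 short motifs on either strand. The first is the CCAAT box, which reads as ATTGG on the other strand. The second is the Sp1-type box GGGCGG, which on the other strand becomes CCGCCC. The third is the TATA box motif TATAAA, and a match to it on the other strand would appear as TTTATA.
Col4a1: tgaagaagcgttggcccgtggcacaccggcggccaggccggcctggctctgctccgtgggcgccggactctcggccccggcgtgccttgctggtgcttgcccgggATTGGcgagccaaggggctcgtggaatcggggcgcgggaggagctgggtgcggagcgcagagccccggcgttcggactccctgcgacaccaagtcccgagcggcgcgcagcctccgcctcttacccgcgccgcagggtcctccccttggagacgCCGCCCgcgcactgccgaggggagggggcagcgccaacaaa
Col4a2: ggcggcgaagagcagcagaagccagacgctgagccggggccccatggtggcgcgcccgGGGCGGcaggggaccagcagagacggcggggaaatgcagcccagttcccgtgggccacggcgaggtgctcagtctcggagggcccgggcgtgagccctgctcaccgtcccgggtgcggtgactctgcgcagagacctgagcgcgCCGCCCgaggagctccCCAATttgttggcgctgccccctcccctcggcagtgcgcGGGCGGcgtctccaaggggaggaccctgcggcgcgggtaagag
Col4a5: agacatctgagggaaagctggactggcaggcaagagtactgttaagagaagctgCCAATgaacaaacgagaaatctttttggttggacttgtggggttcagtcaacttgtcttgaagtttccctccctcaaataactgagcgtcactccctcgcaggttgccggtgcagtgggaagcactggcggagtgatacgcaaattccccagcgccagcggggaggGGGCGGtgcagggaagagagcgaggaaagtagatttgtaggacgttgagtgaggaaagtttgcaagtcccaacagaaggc
Col4a6: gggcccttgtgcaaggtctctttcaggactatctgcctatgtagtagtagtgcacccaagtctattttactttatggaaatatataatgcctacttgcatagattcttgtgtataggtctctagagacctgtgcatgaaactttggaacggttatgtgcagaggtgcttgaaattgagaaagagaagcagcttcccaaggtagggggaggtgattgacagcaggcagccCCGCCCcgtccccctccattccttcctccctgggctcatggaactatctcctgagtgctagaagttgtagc
The Col4a1 window is chr8:11312777-11313076 on the minus strand and the Col4a2 window chr8:11312555-11312854 on the plus strand. The annotated start of Col4a2 is at 11312805 and that of Col4a1 at 11312826, 21 bases apart, so the annotated transcripts overlap at their starts. These windows share 78 bases, read in opposite directions. The Col4a6 window is chrX:141474027-141474326 on the minus strand and the Col4a5 window chrX:141475169-141475468 on the plus strand, with starts 1343 bases apart. The Col4a1 and Col4a2 windows are 74.0% and 73.7% G and C, against 52.7% for Col4a5 and 48.3% for Col4a6. CCAAT occurred once each in the Col4a1, Col4a2 and Col4a5 windows and GGGCGG in all 4, with 3 copies in Col4a2, and TATAAA in none. The only GGGCGG match of Col4a1 lies in the shared bases and is the same site as the last of the 3 in Col4a2. Of all 32851 RefSeq windows of this length, 37.4% held CCAAT, 35.7% GGGCGG and 13.6% TATAAA. The table held 38 windows of 35 of the 44 chains, of which 13 held CCAAT, 23 GGGCGG and 5 TATAAA. A match is a run of letters and was not tested as a binding site.

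Among the other chains, those of collagen VI overlapped between the groups. Col6a1, Col6a2 and Col6a3 form its beaded filaments around fibroblasts, fat cells and muscle fibres. Col6a3 gave 1.45, 2.66 and 3.47 in Wsh tumours, against 1.17, 2.67 and 3.61 in B6 tumours, and its difference was -0.0016 (95% interval -0.76 to 0.75). Col6a1 and Col6a2 differed by -0.20 (SE 0.28) and -0.24 (SE 0.34). Of the FACITs, Col12a1 differed by 0.08 (SE 0.45) and Col14a1 by -0.32 (SE 0.33). Both coat collagen I fibrils. Col12a1 ran from 0.09 to 1.44 in Wsh tumours, against -1.14 to 2.20 in B6 tumours, with an SD of 0.42 in Wsh and 1.22 in B6. Col17a1, the transmembrane collagen of hemidesmosomes in basal epithelial cells, gave -1.29, -0.78 and 1.16 in Wsh tumours, against -2.48, -0.70 and 0.60 in B6 tumours, a difference of 0.33 (SE 0.46).

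Of the remaining chains at an unadjusted p under 0.05, Col10a1, the network collagen of hypertrophic cartilage, had signals of -6.09, -4.51 and -2.79 in Wsh tumours, against -6.66, -5.54 and -4.68 in B6 tumours. It was well above background on 6 of 7 Wsh arrays and 3 of 8 B6 arrays, and 4 Wsh values exceeded the highest B6 value. The difference was 1.05 (SE 0.43, unadjusted p = 0.0273, adjusted p = 0.405). Col20a1, a FACIT, was well above background on every array, with -3.88, -3.29 and -2.64 in Wsh tumours against -4.75, -3.74 and -3.08 in B6 tumours. Its difference was 0.53 (SE 0.24, adjusted p = 0.452), and -0.01 on the second slide alone. Col22a1, a FACIT of tissue junctions such as that of muscle and tendon, was well above background on 3 of 7 Wsh and 5 of 8 B6 arrays and differed by -0.63 (SE 0.29, adjusted p = 0.465). Col13a1, a transmembrane chain, differed by -0.47 (SE 0.26, adjusted p = 0.579). Col16a1, a FACIT, differed by 0.28 (SE 0.22), Col9a1, Col9a2 and Col9a3 by 0.30 (SE 0.41), 0.18 (SE 0.31) and 0.25 (SE 0.25), and Col8a1 and Col8a2 by 0.18 (SE 0.31) and 0.29 (SE 0.36). The 4 chains not yet named, Col6a4, Col23a1, Col25a1 and Col26a1, differed by 0.54 (SE 0.47), -0.34 (SE 0.28), -0.11 (SE 0.84) and 0.11 (SE 0.62), and the probe used for each was not well above background on at least 1 array. A further Col26a1 probe was well above background on all 15 arrays and differed by -0.31 (SE 0.54).

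Several probes were present for some chains, and they did not always give the same difference. Beyond the probe used for each chain, 17 chains had 23 further probes that passed the filter. Their correlation with the used probe over the arrays had a median of 0.875 and reached 0.8 or more for 16, and 12 had a difference of the same sign. The lowest, -0.071, was that of Col13a1, whose further probe was well above background on all 15 arrays and differed by 0.27 (SE 0.33), against -0.47 (SE 0.26) for the used probe. Fitted with all 34346 probes, 0 of the 61 collagen probes passed an adjusted p of 0.05 and 5 had an unadjusted p under 0.05, beside 11.1% of all probes. The used Col1a1 probe at chr11:94813075-94813134 (mm9) and its neighbour at chr11:94813115-94813174 differed by -0.26 and -0.25. The used Col3a1 probe at chr1:45405589-45405648 differed by -0.03 (SE 0.25), while the probes at chr1:45381765-45381824 and chr1:45373784-45373843 differed by 0.78 (SE 0.42) and 0.61 (SE 0.45). Averaging the probes put Col3a1 at 0.45 and Col5a2 at 0.26, both still past no threshold.

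For Col15a1 the 2 probes gave different pictures. Its used probe at chr4:47325273-47325332 gave -3.92, -3.63 and -2.80 in Wsh tumours, against -5.62, -3.56 and -2.55 in B6 tumours. A further probe at chr4:47283786-47283845 gave -4.09, -2.79 and -2.71 in Wsh tumours, against -5.93, -4.41 and -3.45 in B6 tumours. Wsh replicate 1 held the lowest Wsh value of that probe, and the other 6 Wsh arrays all lay above the highest B6 array. The second probe's difference was 1.45 (SE 0.31), with an adjusted p of 0.0703 over all probes, and the correlation of both probes over the 15 arrays was 0.458. Exons and UTRs at these positions were not analysed here.

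Most chains that assemble into the same molecule, and some of different molecules, were correlated from tumour to tumour. Of 12 pairs compared over the 15 arrays, 10 passed an adjusted p of 0.05 (permutation test, two-sided, 100000 resamples, adjusted over the 12 pairs). Col6a1 and Col6a2 had r = 0.991 (rho = 0.968) and Col6a1 and Col6a3 r = 0.928 (rho = 0.875). Col4a1 and Col4a2, the head-to-head pair shown above, had r = 0.966 (rho = 0.939, both permutation p = 1e-05, the smallest these resamples can give, adjusted p = 3e-05 for r and 4e-05 for rho). Without the 2 arrays farthest from the median, r for that pair was 0.948, and it was 0.960 on the first slide and 0.988 on the second. Col4a5 and Col4a6, the X-linked pair shown above, had r = 0.916 and rho = 0.829 (permutation p = 2e-05 and 0.00028), and r = 0.778 without the 2 extreme arrays. Col1a1 had r = 0.913 with Col1a2, 0.879 with Col3a1 and 0.819 with Col5a2, and Col5a1 had r = 0.848 with Col5a2. For Col1a1 with Col5a2, r was 0.515 without the 2 extreme arrays. Col8a1 and Col8a2, the short chains of vessel walls and the cornea, had r = 0.897. For the 10 pairs, r lay between 0.808 and 0.974 on Wsh arrays alone, where Col5a1 with Col5a2 no longer passed, and between 0.658 and 0.998 on B6 arrays alone, where Col1a1 with Col5a2 no longer passed.

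The pairs that did not pass involved cartilage-type chains. Col9a2 and Col9a3 had r = 0.904 (rho = 0.875), but Col9a1, which joins them in collagen IX, had r = 0.121 with Col9a2 (permutation p = 0.678, adjusted p = 0.740, rho = 0.175). Col9a1 was well above background on every array through its used probe, with B6 replicate 3 lowest at 0.55 and the other arrays between 2.21 and 3.79, and its other probe was well above background on 2 arrays. Without B6 replicate 3 its r with Col9a2 was 0.529, and r was 0.562 on Wsh arrays alone and -0.104 on B6 arrays alone. Col11a1 and Col11a2 had r = 0.00093 (permutation p = 0.997, rho = 0.132), with -0.457 on Wsh arrays alone and 0.660 on B6 arrays alone. It was 0.373 without Wsh replicate 6, the high Col11a2 array, and -0.202 without B6 replicate 7. Col2a1, the fibrillar chain of cartilage, had r = 0.989 with Col3a1 over the same arrays. Col2a1, Col9a1, Col9a2, Col9a3 and Col11a1 were well above background on all 15 arrays. Of the 10 genes of the cartilage marker list, Matn1 and Matn3 were well above background on no array and Acan and Hapln1 on 2 arrays each, while Comp, Sox9, Snorc and Chad were so on all 15. Cross-hybridization of the Col2a1 probe was not tested.

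**Figure D3:**
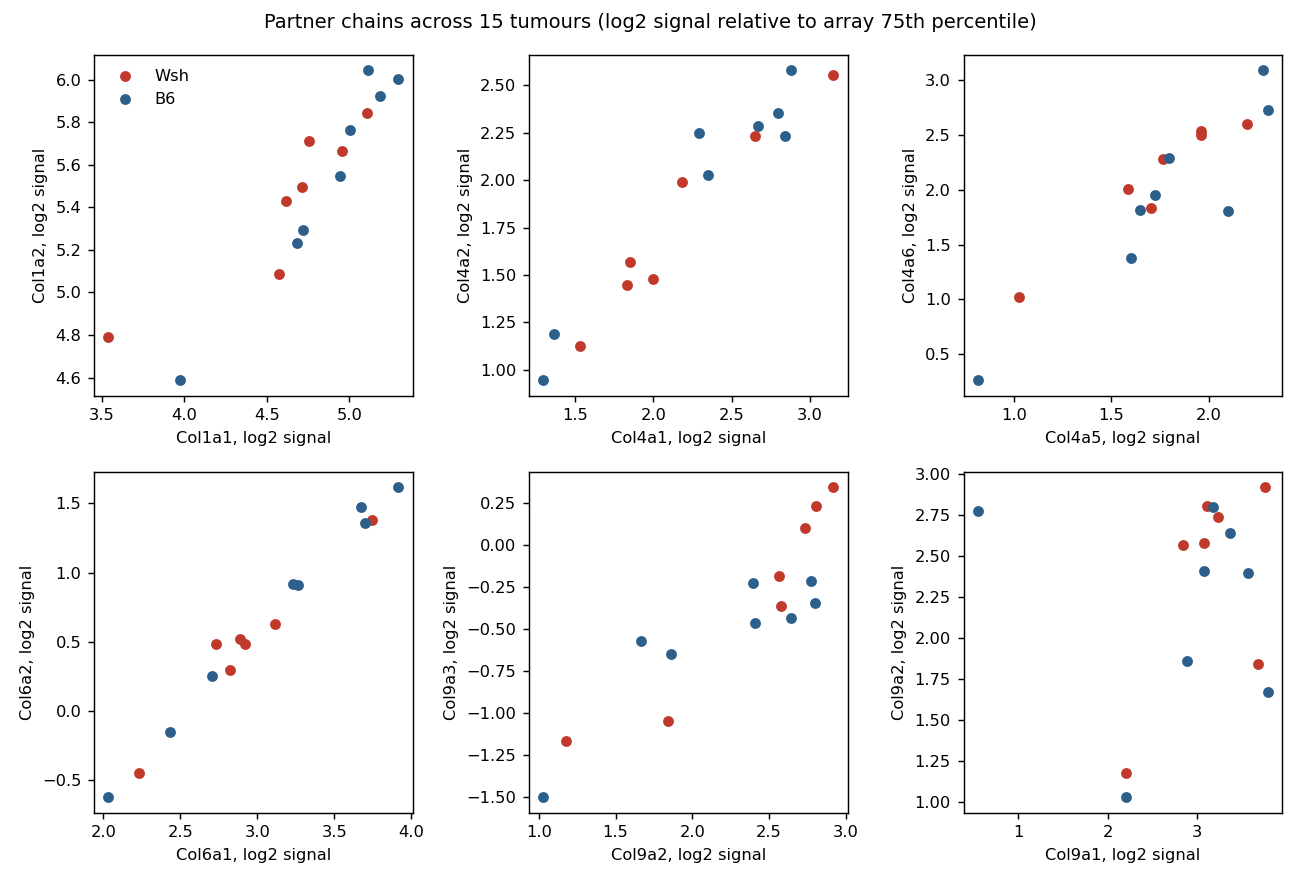
Signals of 6 pairs of chains, each point an array, as log2 relative to the array's 75th percentile, with Wsh and B6 arrays in different colours. In 5 panels the points lie close to a line, with r between 0.904 and 0.991, and in the panel of Col9a1 and Col9a2 they do not, with r = 0.121.

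Across the tumours, most fibrillar chains and those of collagen VI correlated positively with Col3a1, and the fibrillar chains Col27a1 (r = 0.320, adjusted permutation p = 0.316) and Col11a1 (described next) did not. Every chain whose used probe was well above background on all 15 arrays, 30 in all, was set against Col3a1 and against the means of 4 marker lists, 149 relations that were chosen after the data had been seen and adjusted together. Of these, 67 passed, 38 did without B6 replicate 7 and 5 on the second slide alone. With Col3a1, 10 chains correlated positively past an adjusted p of 0.05, namely Col1a1, Col1a2, Col2a1, Col5a1, Col5a2, Col5a3, Col6a1, Col6a2, Col6a3 and Col13a1 (by its used probe). The strongest after Col2a1 were Col6a3 (r = 0.965, rho = 0.896, adjusted permutation p = 1.15e-04 for r and 5.96e-04 for rho) and Col6a2 (r = 0.956). Col3a1 was highest in B6 replicate 4, Wsh replicate 1 and B6 replicate 7, between 5.35 and 5.48, and lowest in B6 replicate 3 and Wsh replicate 2, both at 3.87. Both groups therefore held tumours at each end.

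By contrast, 6 chains were negatively correlated with Col3a1. These were Col12a1 (r = -0.724, rho = -0.675), Col4a6 (r = -0.678, rho = -0.707), Col8a1 (r = -0.655), Col11a1 (r = -0.639), Col8a2 (r = -0.613) and Col4a5 (r = -0.596), with adjusted permutation p from 0.0116 for Col12a1 to 0.0443 for Col4a5. Rank correlations of Col8a1, Col8a2 and Col4a5 did not pass (adjusted p from 0.0763 to 0.125). Without the 2 arrays farthest from the median of the chain set against Col3a1, r was -0.579 for Col12a1, -0.618 for Col4a6 and -0.355 for Col8a2. Col12a1 had its lowest signals, -1.14, -0.60 and 0.09, in B6 replicate 7, B6 replicate 4 and Wsh replicate 1, and its highest, 2.20, in B6 replicate 5. Col11a1 was likewise lowest in B6 replicate 7 (-1.39) and highest in B6 replicate 5 (3.27). On both slides r with Col3a1 was negative for each of the 6 chains. These arrays are single pieces of tumour, and all chains of an array share its RNA and scaling.

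**Figure D4:**
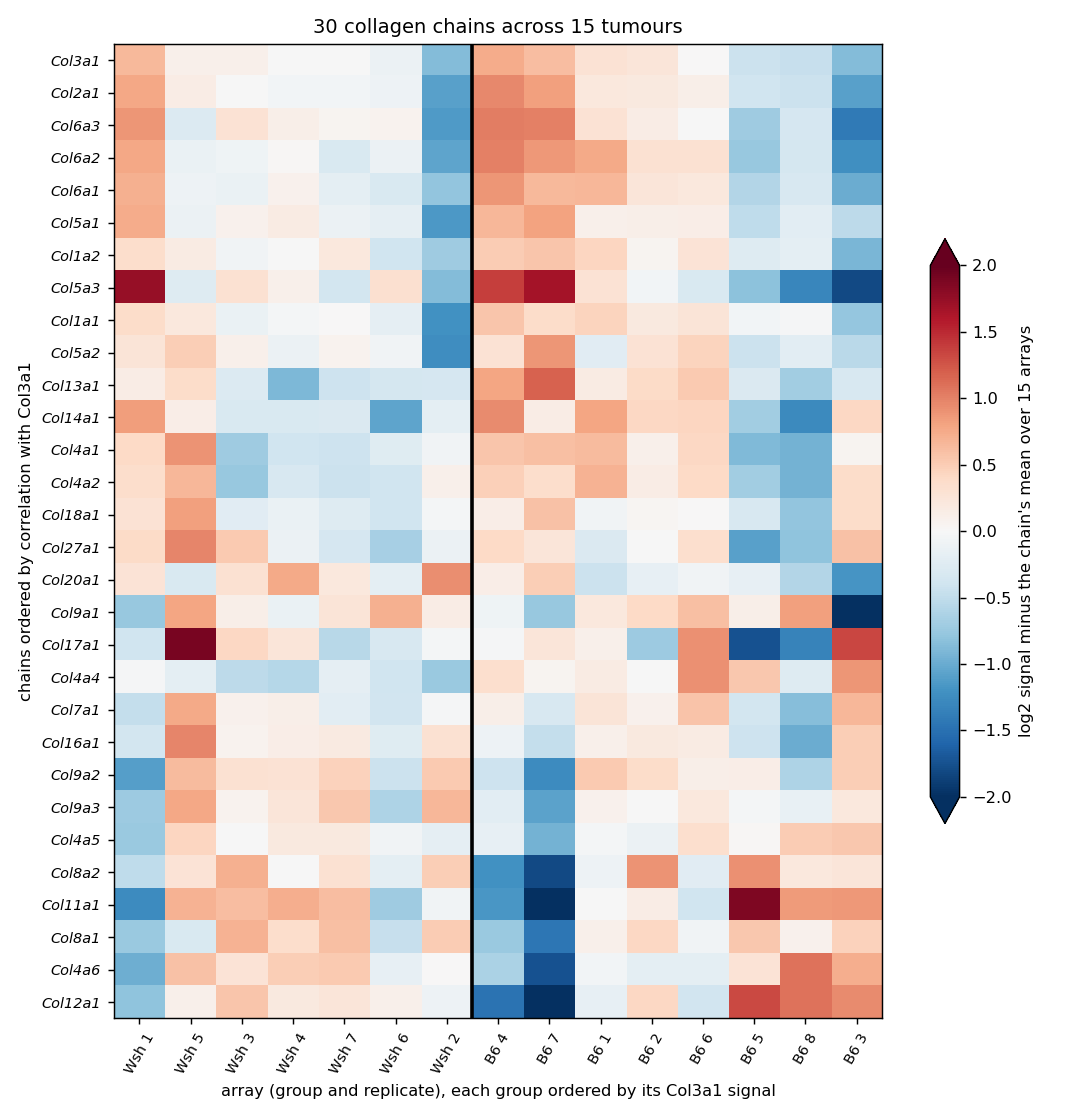
Signals of the 30 chains whose used probes were well above background on all 15 arrays, as the log2 signal minus the chain's own mean over the arrays. Columns are arrays, Wsh at the left of the line and B6 at the right, each group ordered by its Col3a1 signal, and rows are ordered by r with Col3a1 from the highest at the top. Wsh replicate 1 and B6 replicates 4 and 7 are high in the upper rows and low in the lowest rows, and B6 replicate 3 runs the other way.

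The chains were then set against the markers of cell types. With the fibroblast list (Pdgfra, Dcn, Lum and 9 others, no collagen among them), 11 chains passed positively and 6 negatively. Col5a3 had the highest r, 0.962 (rho = 0.911), Col6a3 had 0.926 and Col1a1 0.688, and Col12a1 had the lowest, -0.795. With the endothelium list, 10 chains passed positively, led by Col5a3 (r = 0.873), and 7 negatively, led by Col4a6 (r = -0.909, rho = -0.904) and Col4a5 (r = -0.887, rho = -0.854). Col4a1, a chain of nearly all basement membranes, had r = 0.622 (rho = 0.661) with endothelium and Col4a2 r = 0.548, which did not pass. The Col4a1 value passed among the 149 relations (adjusted permutation p = 0.0377) and not by r in the planned family of 42 described below (0.0551, and 0.0484 by rank). Without the 2 arrays farthest from the Col4a1 median, its r with endothelium was 0.449. With the luminal epithelium list, 5 chains passed positively, Col4a5 (r = 0.706), Col12a1 (0.654), Col11a1 (0.644), Col4a6 (0.599) and Col9a2 (0.596). With it 7 chains passed negatively, Col1a2, Col2a1, Col3a1, Col5a3, Col6a1, Col6a2 and Col6a3, the lowest r being -0.720 for Col5a3. None of these 12 passed by rank. The fibroblast list mean itself was 0.96, 1.74 and 3.12 in Wsh tumours, against 0.71, 1.90 and 2.86 in B6 tumours, so its range was also shared by both groups.

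Another set of chains, which shared Col9a2 with the luminal list, followed the basal epithelium list (Krt5, Krt14, Trp63, Itgb4 and 6 others). Col16a1 had r = 0.859 (rho = 0.818), Col7a1 0.779 (rho = 0.743), Col9a2 0.752 (rho = 0.811), Col17a1 0.715 (rho = 0.664) and Col9a3 0.699 (rho = 0.811), and all 5 passed by r and by rank. These 5 kept a positive r on each slide, with 0.720 and 0.819 for Col17a1 and 0.879 and 0.986 for Col16a1 on the first and second. On the first slide, Col7a1 had r = 0.980 with the luminal list and 0.697 with the basal list. On the second, these were 0.095 and 0.889. No chain passed negatively with the basal list. Some r with it changed sign between slides, as for Col3a1, with -0.905 on the first and 0.391 on the second. In a separate family of 42 relations of 6 chains with 7 lists, adjusted over the 42, 10 passed, 8 of them of Col6a3 and Col15a1, and 6 passed without B6 replicate 3, 2 on the first slide alone and 0 on the second. The skeletal muscle list, 1 of the 7, split the arrays into 2 clusters, so no r with it is given. By its used probe, Col15a1 had r = 0.864 with endothelium (rho = 0.925), 0.859 with adipocytes and 0.840 with fibroblasts. The further Col15a1 probe described above had r = 0.458 with the used one. For Col6a3, r with adipocytes was 0.857.

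**Figure D5:**
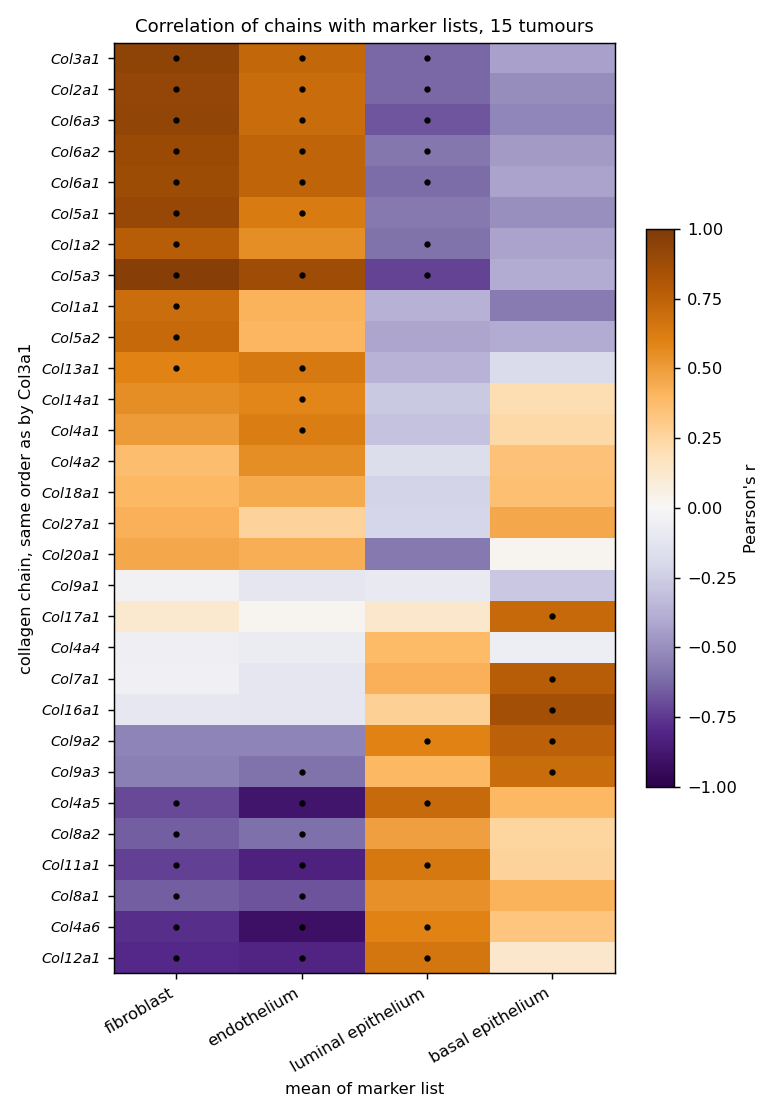
Pearson correlation of the 30 chains with the mean of 4 marker lists over 15 arrays, as colour from -1 to 1, with chains in the order of their r with Col3a1. Black dots mark relations with an adjusted permutation p under 0.05, of which the fibroblast column has 17, the endothelium column 17, the luminal column 12 and the basal column 5.

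The genes outside the collagen family that most resembled 3 of the chains were also listed. For Col1a1 the named genes were Mfap2, a microfibril protein (r = 0.883 over the 15 arrays), the gene named a, which encodes agouti (r = 0.852), and Lum, the fibril-binding proteoglycan lumican (r = 0.851), beside 2 transcripts without a gene name. For Col4a1 they were Plpp1 (0.915), Cacna1c (0.912), Begain (0.895), Osr1 (0.890) and Psd2 (0.885). For Col17a1 they were Speg (0.944), Jag2, a Notch ligand (0.942), Plch2 (0.931), Fhod3 (0.924) and Mylk, the myosin light chain kinase (0.920). Col2a1, added after its values were seen, was closest to Mfap2 (0.974), and Lum (0.969) and Pdgfra (0.957) were among its 5 closest.

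Genes that make, process, bind, sense or degrade collagen gave 1 call. In the collagen synthesis and folding list, 1 of 20 tested genes was called, lower in Wsh, beside 0.336% of all genes in either direction. It was Sec23a, a subunit of the COPII coat that carries procollagen out of the endoplasmic reticulum. Its signals were -1.74, -1.73 and -1.52 in Wsh tumours, against -1.40, -1.18 and -0.99 in B6 tumours, and the groups did not overlap. The difference was -0.51 (SE 0.08, adjusted p = 0.00659). It stayed between -0.61 and -0.44 under all 29 other settings, and missed the adjusted threshold on each slide alone, with the replicate block and once the 5 arrays with skeletal muscle were left out. Export of collagen was not measured. Whether the Sec23a difference comes from other DNA of the backgrounds was not tested. The median of this list was -0.08, beside -0.01 for all genes. Serpinh1, the collagen chaperone HSP47, differed by 0.33 (SE 0.17, adjusted p = 0.541) and Plod3, a lysyl hydroxylase, by 0.15 (SE 0.09).

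In the other 6 lists limma called no gene, and 1 of their 72 tested genes (1.39%) had an unadjusted p under 0.05, beside 10.4% of all genes. That gene was Lair1, an inhibitory collagen receptor of immune cells, at 0.48 (SE 0.14, adjusted p = 0.220), 1 of 10 tested receptors. Itga10 and Itga2, the alpha chains of collagen-binding integrins, differed by 0.43 (SE 0.35) and 0.32 (SE 0.27). Of 13 processing and crosslinking genes, Adamts14 differed by 0.46 (SE 0.31), Bmp1, the procollagen C-proteinase, by 0.21 (SE 0.15) and Loxl3 by -0.25 (SE 0.22). Of 9 degradation genes, Mmp13, an interstitial collagenase, differed by 0.73 (SE 0.41, adjusted p = 0.575), Timp1 by 0.37 (SE 0.21) and Fap by 0.17 (SE 0.41). Of 14 collagen-binding matrix genes, Thbs2 differed by -0.29 (SE 0.19), Fbln2 by 0.32 (SE 0.22) and Bgn by -0.22 (SE 0.17). The TGF beta pathway drives collagen transcription in fibroblasts. Of 14 genes listed for it, which include inhibitors and targets, Smad7 differed by -0.16 (SE 0.10), Tgfbi by 0.26 (SE 0.20) and Tgfbr2 by -0.15 (SE 0.13). Of 12 basement membrane partners, Hspg2 differed by 0.29 (SE 0.18) and Lama5 by -0.25 (SE 0.21), beside Pxdn above. The list medians lay between -0.13 and 0.05.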

How the data were processed

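Total RNA of 15 mammary tumours was extracted with a lipid tissue kit, amplified and labelled with Cy3 by a low-input whole-transcript kit, and read on 1-colour Agilent mouse arrays, per the labels' protocols. The scanner output was made with Agilent Feature Extraction 10.7.3.1, per the submitters' processing notes. It gives a background-corrected processed intensity for each spot, per the file headers, together with flags for spots well above background, outliers and saturation. The deposited value table holds log2 values (the notes also name limma), with column medians between 8.64 and 8.65, and its scale beyond that is not given in the sources used here. Probe positions are on mm9, per the file headers, and promoter sequences come from RefSeq on GRCm38.p6.

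Here, log2 of the processed intensity was taken minus each array's log2 75th percentile, outlier spots were left out and spots of a probe averaged. A probe was kept when 7 or more of the 15 arrays had it well above background, and a gene was represented by its kept probe with the highest mean, which left 22342 genes. No level of a probe is set against that of another. The difference of Wsh and B6 came from limma 3.58.1 (R 4.3.3), with lmFit and eBayes over all genes and a threshold of adjusted p 0.05, tested on simulated data. Correlations used permutation tests in Python 3.11.15. The labels do not say that same-numbered Wsh and B6 samples are pairs. Their deviations from the group means had correlations from -0.24 to 0.21, and no pairing was used. Other settings were normexp with an offset of 50, quantile and median scaling, no filter, a filter of all 15 arrays, the mean of probes, slides, a replicate block, array weights, trend with robust, the deposited values, each array left out, and the 5 arrays with skeletal muscle left out.

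The members and lists were chosen with earlier results of these data known. Named chains were 16 of collagen I, III to VII, XII, XIV, XV, XVII and XVIII, the 4 of each class with the largest absolute t, the 4 of largest and of smallest within-group SD, and any with an outlying array; for each gene list the 3 genes of largest absolute t, and the 5 genes most like Col1a1, Col4a1 and Col17a1.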

Additional observations from a re-analysis of the deposited data

Results flagged for a closer look

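Each array's signal was compared with the rest of its group for the 38 tested chains, by the gap of the highest or lowest array to its neighbour as a share of the group's range. Chance alone marks about 1 in 20 such groups, and 7 of 76 groups were marked, through 5 arrays. Wsh replicate 2 was lowest for Col1a1 at 3.54, with the next Wsh array at 4.57, and lowest for Col5a2 at -1.97, with the next at -0.85. It was also the lowest Wsh array of Col1a2, Col3a1 and Col5a1. B6 replicate 3 was lowest for Col1a1 at 3.97, with the next B6 array at 4.69. B6 replicate 7 was lowest for Col4a5 at 0.81, with the next at 1.60, and for Col9a3 at -1.50, with the next at -0.65. It also held the lowest B6 signals of Col4a6, Col11a1 and Col12a1. Wsh replicate 6 was highest for Col11a2 at -0.50, with the next Wsh array at -4.31, and Wsh replicate 5 was highest for Col17a1 at 1.16, with the next at -0.33. Causes were not tested.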

How the results depend on the processing

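No collagen chain passed the threshold in 29 of 30 other settings, and with array weights 1 did, Col4a4 (-0.77, adjusted p = 0.04998, against a range of -0.81 to -0.55 over all settings). Chains at an unadjusted p under 0.05 numbered 2 with normexp and 2 with the filter of all 15 arrays, and from 2 to 4 with an array left out (2 without Wsh replicate 1 or 2 or B6 replicate 1 or 4). All genes called numbered 25 with no filter, 4 on the first slide, 1 on the second, 153 with array weights, 24 without the 5 arrays with skeletal muscle, and from 25 to 76 with an array left out. That count was under 50 for every array left out but Wsh replicates 1 and 5 and B6 replicate 7. With the replicate block, 15 genes and 0 chains were called. Nothing in the labels says that the replicate numbers pair the samples.

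The differences that changed sign had passed no threshold, and passed none after the change. On the second slide alone they were Col3a1 (0.065), Col4a1 (0.29), Col4a2 (0.16), Col4a5 (0.21), Col7a1 (0.30), Col20a1 (-0.012), Tgfbi (-0.058) and Lama5 (0.0011), and on the first Col4a6 (-0.014), Col6a3 (0.027), Col17a1 (-0.11), Col18a1 (-0.15) and Itga2 (-0.14). With the mean of probes they were Col1a2 (0.072), Col3a1 (0.45), Col5a2 (0.26), Col6a3 (0.25), Bmp1 (-0.055), Bgn (0.23) and Pxdn (0.15). Without the 5 arrays with skeletal muscle they were Col11a1 (-0.13), Col12a1 (-0.093), Col17a1 (-0.13), Col18a1 (-0.21), Col27a1 (-0.23) and Fap (-0.054). They were Col3a1 (0.015) and Col6a3 (0.013) with quantile scaling, Col12a1 (-0.022) and Col18a1 (-0.090) with median scaling, Col6a3 (0.0022) with normexp, Col6a3 (0.011) and Col7a1 (0.010) with the deposited values, Col18a1 (-0.10) and Col4a5 (0.031) with the replicate block, and Col18a1 (-0.076) and Col4a5 (0.028) with array weights. With an array left out, their ranges were -0.16 to 0.11 for Col3a1, -0.20 to 0.19 for Col6a3, -0.13 to 0.093 for Col18a1, -0.17 to 0.053 for Col7a1, -0.0072 to 0.52 for Col5a3, -0.18 to 0.079 for Col4a5, -0.053 to 0.38 for Fap, -0.29 to 0.026 for Col5a1, -0.23 to 0.061 for Col5a2, -0.21 to 0.27 for Col12a1, -0.039 to 0.38 for Col4a6 and -0.22 to 0.44 for Col11a1. The cause was not tested.

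Of the 12 chain pairs, 9 or 10 passed in each setting. The 42 relations gave 0 calls on Wsh arrays alone, 2 on the first slide, 0 on the second and from 6 (without B6 replicate 3) to 14 with an array left out. The 149 added relations gave 5 calls on the second slide, 41 without the 2 extreme arrays, 29 without the 5 arrays with skeletal muscle and from 38 (without B6 replicate 7) to 76 with an array left out. Fewer arrays entered each of these. Chains dim on several arrays, such as Col10a1, Col11a2 and Col22a1, are limited by their signal over background.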
